A study of Mus musculus with 9 samples.

Results

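The cell cycle and DNA replication genes described here are 45 genes of S phase, of the G2/M transition and of mitosis, chosen by gene symbol. A gene was measured where a probe set of the array carried its symbol and no other, which held for 44 of the 45 genes and for 102 of the 45101 probe sets. Ccnb1 had no such probe set in the annotation used and has no value here. Each gene was represented by its brightest probe set, so that the 44 genes stand among 18193 genes in all.

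The arrays measured RNA of small intestinal mesenchyme, the connective tissue layer of the gut, taken from C57Bl/6J mouse embryos at E18.5, shortly before birth. The epithelium had been removed and the mesenchyme grown on a collagen matrix in medium with 10% serum for 48 h, of which 24 h were with Shh (Sonic hedgehog ligand), with Ihh (Indian hedgehog ligand) or with Vehicle, the control. Each of the 3 treatments had 6 wells, which were pooled at random into 3 samples, and each sample was hybridised to its own array. All groups therefore shared strain, age, tissue, matrix and serum. Neither the ligand dose nor what Vehicle held is stated in the labels. The replicates are pools of wells, and nothing in the labels says how many embryos or litters stand behind a pool, so the p-values measure the spread between these pools only.

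A dividing cell copies its DNA once. Origins of replication are licensed in G1 by loading of the MCM helicase, the helicase is activated at the start of S phase, and the forks then use nucleotides that are made on demand. The kinase Cdk1 with its A and B cyclins drives entry into mitosis, the spindle checkpoint holds chromosome separation until all chromosomes are attached, and the anaphase-promoting complex, APC/C, ends mitosis by marking cyclin B and securin for destruction. Most of these genes are transcribed in waves, S-phase genes through E2F factors and G2/M genes through CHR elements and CCAAT boxes, so that in bulk RNA their levels go up and down with the share of cells in cycle. Hedgehog ligands from the gut epithelium signal to the mesenchyme through the receptor Ptch1 and the GLI factors. The question put to these genes was whether they followed the treatment or the individual array.

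Of the 44 cell cycle genes, 0 passed the test between treatments at an adjusted p under 0.05 (limma). For both ligands against Vehicle 1.51% of all genes passed it. In that comparison 3 of the 44 had an unadjusted p under 0.05, where 13.7% of all genes did. Averaged over both ligands against Vehicle, the differences lay between -0.10 (Tyms) and 0.24 (Chaf1b) on the log2 scale, or between 0.932-fold and 1.18-fold. Of the 44, 40 were above 0 (50.5% of all genes). For Shh against Vehicle 41 of 44 were above 0 (53.9% of all genes). By the probe set used, all 3 Shh arrays lay above the 3 Vehicle arrays for 11 of 44 genes, where 9.56% of all genes did so. Other probe sets of some of these genes overlapped. The genes also moved together from array to array. Array Shh 1 was the highest of the Shh arrays for 39 of 44 genes (42.3% of all genes). Array Ihh 1 was the lowest of the Ihh arrays for 44 of 44 (32.4% of all genes). In RNA from a whole culture, fewer cycling cells and less RNA of these genes per cell cannot be told apart.

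The treatment itself was visible on every array. Ptch1, the hedgehog receptor and a direct target of the pathway, measured 10.41, 10.88 and 10.35 on the Shh arrays, 10.57, 10.49 and 10.98 on the Ihh arrays, and 9.25, 9.11 and 9.06 on the Vehicle arrays (log2 expression). It rose by 1.48 with the ligands against Vehicle (limma, adjusted p = 0.000622), and Gli1, the pathway's transcription factor and target, rose by 0.89 (limma, adjusted p = 0.0443). The array medians over all probe sets lay between 5.87 and 5.92, and correlations between arrays lay between 0.991 and 0.998. The mean level of 8 mesenchyme markers, among them Col1a1, Col3a1 and Vim, was between 11.22 and 11.60 on the 9 arrays, and 9 macrophage markers averaged 10.06 to 10.28. Of those 9, Adgre1 fell by 1.04 with the ligands, and Cx3cr1 and Laptm5 rose by 0.87 and 0.37 (limma, adjusted p = 0.000269, 0.0384 and 0.0347). Tyms had a mean of 5.81, below the 40th percentile of gene means (6.02), and the other 43 genes lay above it.

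The promoters of the genes are shown first, because the genes moved together and because E2F motifs are known from genes of the S-phase wave and CHR elements from those of the G2/M wave. RefSeq promoters of mouse build GRCm38.p6, from 250 bases before the annotated start to 50 after it, were at hand for 37 of the 45 genes. These windows were searched on both strands for the CCAAT box (CCAAT), for the CHR element (TTTGAA), for the E2F motif in the forms TTTCGCGC, TTTGGCGC, TTTCCCGC and TTTGCCGC, and for the GLI motif GACCACCCA. The 250 bases before the start are printed for the S-phase genes Mcm6 and Mcm5, which had 3 and 2 E2F motifs, and for the G2/M genes Top2a and Ube2c, which had the most CCAAT and CHR motifs. Cdk1 was added after its motifs had been seen, since it held all 3 kinds. Each sequence reads 5′ to 3′ along the gene's own strand, and capitals mark the motifs. Overlapping motifs run together as 1 block of capitals.
Mcm6, chr1:128359706-128359955, minus strand: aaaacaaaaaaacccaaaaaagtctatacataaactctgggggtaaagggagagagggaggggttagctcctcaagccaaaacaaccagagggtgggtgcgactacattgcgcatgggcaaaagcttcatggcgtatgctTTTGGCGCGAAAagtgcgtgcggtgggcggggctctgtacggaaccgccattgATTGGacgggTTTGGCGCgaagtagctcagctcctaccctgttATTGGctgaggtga
Mcm5, chr8:75109259-75109508, plus strand: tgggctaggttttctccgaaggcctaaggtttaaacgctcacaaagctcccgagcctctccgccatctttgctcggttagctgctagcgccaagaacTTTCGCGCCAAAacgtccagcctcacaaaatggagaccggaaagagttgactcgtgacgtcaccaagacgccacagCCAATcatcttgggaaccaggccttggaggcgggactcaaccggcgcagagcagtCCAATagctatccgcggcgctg
Top2a, chr11:99024190-99024439, minus strand: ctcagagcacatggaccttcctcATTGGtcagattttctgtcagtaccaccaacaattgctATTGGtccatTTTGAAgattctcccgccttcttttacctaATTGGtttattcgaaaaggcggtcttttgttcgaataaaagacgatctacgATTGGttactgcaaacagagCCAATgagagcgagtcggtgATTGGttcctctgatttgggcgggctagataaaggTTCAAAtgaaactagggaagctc
Ube2c, chr2:164769679-164769928, plus strand: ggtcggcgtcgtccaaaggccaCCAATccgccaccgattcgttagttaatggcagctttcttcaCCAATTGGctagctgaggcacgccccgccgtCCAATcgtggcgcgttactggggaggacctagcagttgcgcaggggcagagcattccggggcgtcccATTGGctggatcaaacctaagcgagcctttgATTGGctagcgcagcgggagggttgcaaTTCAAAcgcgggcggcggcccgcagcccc
Cdk1, chr10:69352913-69353162, minus strand: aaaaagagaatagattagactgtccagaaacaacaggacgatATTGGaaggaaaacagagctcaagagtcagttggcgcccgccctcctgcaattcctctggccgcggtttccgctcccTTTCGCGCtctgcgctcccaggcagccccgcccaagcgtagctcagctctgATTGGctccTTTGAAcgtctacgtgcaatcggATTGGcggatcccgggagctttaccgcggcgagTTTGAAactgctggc

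Mcm6 and Mcm5 each carried a pair of overlapping E2F motifs that face each other, written as TTTGGCGCGAAA in Mcm6 and TTTCGCGCCAAA in Mcm5. Top2a and Ube2c carried 6 CCAAT boxes each, and their last CHR element before the start read TTCAAA, the reverse strand of TTTGAA, in both genes. Ube2c also had a block CCAATTGG, in which a CCAAT box on either strand overlaps the other. Cdk1 had 1 E2F motif farther from the start than its closer CCAAT boxes and its 2 CHR elements.

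Among all genes of the S-phase roles with a promoter, 7 of 17 held an E2F motif (41.2%), 2 a CHR element and 10 a CCAAT box. Among the genes of the G2/M and mitotic roles, 14 of 20 held a CHR element (70.0%), 18 a CCAAT box (90.0%) and 1, Cdk1, an E2F motif. Every one of the 14 with a CHR element also had a CCAAT box. Over 14453 genes with a promoter and a probe set of their own, 3.81% held the E2F motif, 15.7% the CHR element and 42.0% the CCAAT box. Of all 32851 promoters in the table, counted singly, 2.26%, 17.9% and 37.4% did. The GLI motif was in 0 of the 37 genes, which had 40 windows in all, against 0.235% of the 14453 genes, and a window without these letters says nothing about GLI factors. Counted from the start, with bases before it negative, the 41 CCAAT boxes of the G2/M genes had their median centre at -66 bases and the 18 CHR elements at -14 bases, with an element that lay in both windows of a gene counted once. The 12 E2F motifs of the S-phase genes had theirs at -104.5 bases. Of other genes of the same pathways that are not among the 45, E2F motifs were in 12 of 31 S-phase genes (38.7%), and CHR elements were in 24 of 37 G2/M genes (64.9%). CCAAT boxes were in 22 of those 37 (59.5%, against 90.0% above), and both elements together in 18 (48.6%, against 70.0%).

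**Figure D1:**
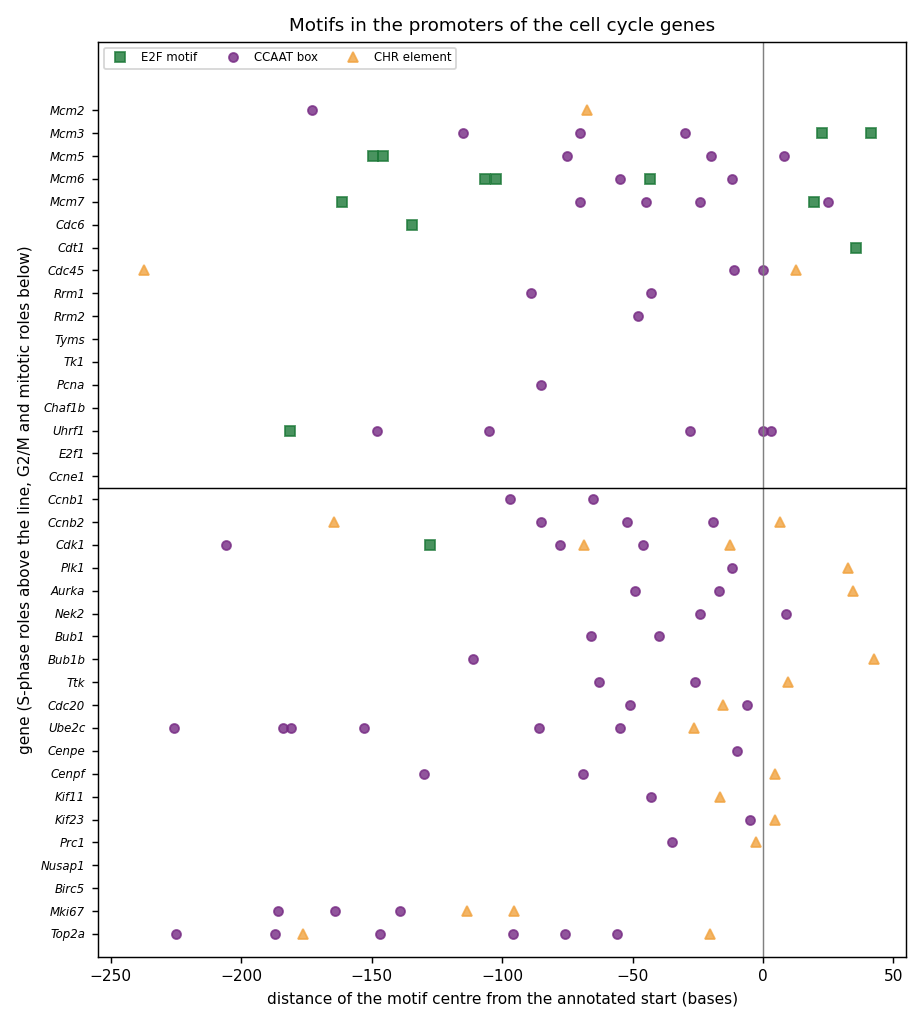
Position of E2F motifs (squares), CCAAT boxes (circles) and CHR elements (triangles) in the promoter windows of 37 cell cycle genes, as the distance of the motif centre from the annotated start in bases, with an element shared by both windows of a gene drawn once. The E2F motifs lie in 7 S-phase genes and in Cdk1, and the CHR elements in 14 G2/M and mitotic genes and 2 S-phase genes.

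The treatment comparison is given first for the whole set. At an adjusted p under 0.05 in limma's moderated test, 0 of 44 cell cycle genes were called for both ligands against Vehicle, where 1.51% of all genes were. The count was also 0 for Shh against Vehicle (1.73% of all genes called), for Ihh against Vehicle (0.649%, or 118 genes), for Shh against Ihh (0.011%) and for any difference among the 3 treatments (0.841%). The deviations of same-numbered Ihh and Vehicle arrays correlated, though the labels give no pairing. With only those 6 arrays and the number as a block, 280 genes and again 0 cell cycle genes were called. That block was chosen after seeing the data. The lowest adjusted p among the genes was 0.264 (Nusap1) for both ligands, 0.172 (Mcm4) for Shh, 0.398 (Nusap1) for Ihh and 0.319 (Cdt1) for Shh against Ihh. Without adjustment, 3 genes had p under 0.05 for both ligands, namely Mcm4, Mcm5 and Nusap1, where 13.7% of all genes did. The unadjusted counts were 5 for Shh (18.8% of all genes), 1 for Ihh (9.19%), 2 for Shh against Ihh (13.1%) and 1 for the test of any difference (16.5%). As shares of 44, these counts were below those of all genes in all 5 tests, with both directions pooled. The 3 genes for both ligands and the 5 for Shh were all higher with ligand. Of all genes, 955 were higher and 1530 lower for both ligands, and 1466 higher and 1954 lower for Shh. Counted upward only, the shares of the 44 were near those of all genes, and slightly above them, in these 2 comparisons. With so few genes, which also move together, this is no result about the set.

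The sizes were small and mostly of 1 sign. For Shh against Vehicle 41 of 44 differences were above 0, with a median of 0.17, while over all genes 53.9% were above 0 with a median of 0.01. For Ihh against Vehicle 33 of 44 were above 0, with a median of 0.03 (all genes 46%, median -0.01). Both comparisons use the same 3 Vehicle arrays. For Shh against Ihh 42 of 44 were above 0, with a median of 0.12 (all genes 55.8%, median 0.02). The genes are not independent of each other, as their joint movement below shows, so that many signs alike are not many observations. The highest upper limit of a 95% interval was 1.42-fold for both ligands and 1.52-fold for Shh, both in Chaf1b, and the lowest lower limit was 0.823-fold and 0.793-fold, both in Tyms. These intervals are of 1 gene each and unadjusted.

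**Figure D2:**
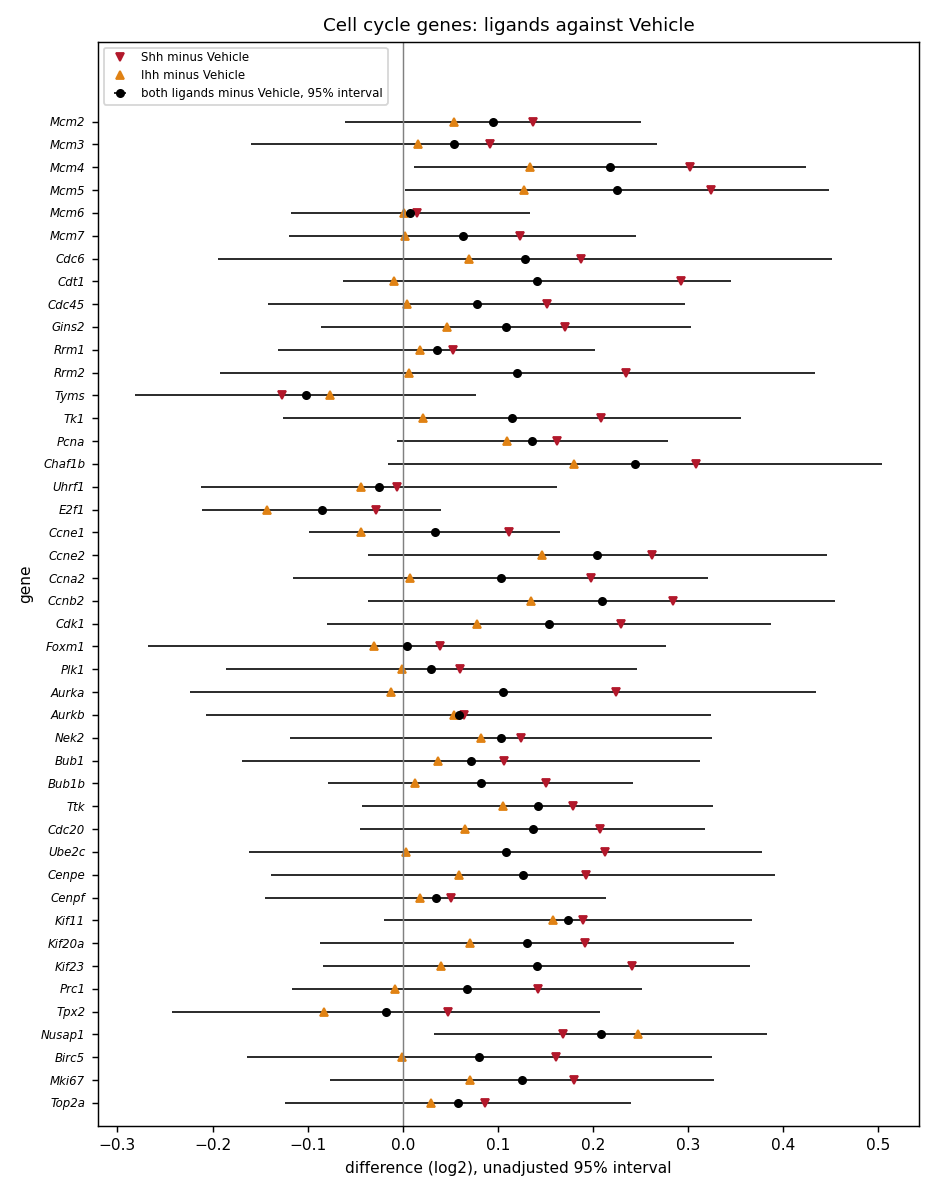
Difference of each of the 44 cell cycle genes from Vehicle in log2 units: black points and lines are both ligands minus Vehicle with the unadjusted 95% interval, red triangles Shh minus Vehicle and orange triangles Ihh minus Vehicle. The intervals of 3 genes, Mcm4, Mcm5 and Nusap1, lie above 0, none lies below 0, and none of the genes passed the adjusted test.

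The 10 genes of origin licensing and the replicative helicase all had differences above 0 for both ligands against Vehicle, with a median of 0.10, and none passed the test. Mcm4, a subunit of the MCM helicase, measured 9.75, 9.94 and 9.72 on the Shh arrays, 9.42, 9.62 and 9.87 on the Ihh arrays, and 9.52, 9.44 and 9.54 on the Vehicle arrays. The Shh arrays lay above the Vehicle arrays, while Ihh 1 was below all 3 Vehicle arrays and Ihh 2 and Ihh 3 above them. Its difference was 0.22 for both ligands (SE 0.09, adjusted p = 0.336) and 0.30 for Shh (adjusted p = 0.172). Mcm5, another subunit, measured 10.42, 10.18 and 10.23 with Shh, 9.82, 10.11 and 10.30 with Ihh, and 9.89, 9.92 and 10.04 with Vehicle. Again Ihh 1 was the lowest of the 9 arrays, and the difference for both ligands was 0.23 (SE 0.10, adjusted p = 0.359). Mcm2 gave 9.59, 9.43 and 9.35 with Shh, 9.23, 9.43 and 9.45 with Ihh, and 9.32, 9.28 and 9.36 with Vehicle, and the 3 groups overlapped. Mcm6, with 3 E2F motifs in the promoter shown, had one of the steadiest levels within groups: 10.41 ± 0.10 with Shh, 10.40 ± 0.07 with Ihh and 10.40 ± 0.02 with Vehicle (SD, n = 3 each).

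Cdt1, which loads the helicase together with Cdc6, was the gene nearest to a difference between the ligands. It measured 10.30, 9.97 and 10.10 with Shh, 9.70, 9.76 and 10.01 with Ihh, and 9.81, 9.73 and 9.95 with Vehicle. All Shh arrays lay above the Vehicle arrays, and Shh 2 lay below Ihh 3, so that Shh and Ihh overlapped. The difference was 0.29 for Shh against Vehicle (adjusted p = 0.180), -0.01 for Ihh against Vehicle and 0.30 for Shh against Ihh (adjusted p = 0.319). Cdc6 had one of the widest spreads within groups, a pooled SD of 0.25: its values were 7.38, 7.001 and 7.001 with Shh, 6.58, 7.21 and 7.24 with Ihh, and 6.99, 6.86 and 6.96 with Vehicle. Array Ihh 1 stood farther from the other Ihh arrays for Cdc6 than any of the group means stood from each other.

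Nucleotide supply was represented by 4 genes. Rrm2, the regulated subunit of ribonucleotide reductase, measured 10.84, 10.59 and 10.65 with Shh, 10.08, 10.57 and 10.73 with Ihh, and 10.29, 10.38 and 10.70 with Vehicle. All 3 groups overlapped, and its difference of 0.12 for both ligands was smaller than its pooled SD of 0.24. Tk1, thymidine kinase of the salvage pathway, averaged 8.29 ± 0.20 with Shh, 8.11 ± 0.22 with Ihh and 8.08 ± 0.11 with Vehicle (SD, n = 3 each). Tyms, thymidylate synthase, had the lowest difference for both ligands, -0.10 (adjusted p = 0.655). Its values were 5.86, 5.83 and 5.58 with Shh, 5.73, 5.76 and 5.92 with Ihh, and 5.81, 5.81 and 6.02 with Vehicle, and the 3 groups overlapped.

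Of the genes of the fork and of chromatin assembly, Pcna, the sliding clamp of the DNA polymerases, measured 11.88, 11.74 and 11.73 with Shh, 11.65, 11.75 and 11.79 with Ihh, and 11.51, 11.71 and 11.64 with Vehicle. The Shh arrays lay above the Vehicle arrays, though Shh 3 and Vehicle 2 were close. The difference was 0.14 for both ligands (SE 0.06, adjusted p = 0.387). Chaf1b, a subunit of the chromatin assembly factor that places histones on new DNA, had the highest difference, 0.24 (SE 0.12, adjusted p = 0.396). It measured 7.58, 7.22 and 7.19 with Shh, 6.97, 7.22 and 7.40 with Ihh, and 6.89, 6.99 and 7.18 with Vehicle. Uhrf1, which carries DNA methylation over to the new strand, averaged 9.14 ± 0.17 with Shh, 9.10 ± 0.15 with Ihh and 9.14 ± 0.02 with Vehicle (SD, n = 3 each).

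The G1/S regulators differed among themselves. E2f1, the activating transcription factor of S-phase genes, measured 7.22, 7.13 and 7.04 with Shh, 6.996, 7.02 and 7.02 with Ihh, and 7.08, 7.15 and 7.24 with Vehicle. By the probe set used, it was the only gene of the 44 whose Shh arrays all lay above its Ihh arrays, where 9.37% of all genes did so. Its Ihh arrays there all lay below Vehicle. The difference was -0.14 for Ihh against Vehicle (limma, adjusted p = 0.558) and -0.09 for both ligands (adjusted p = 0.571). In another probe set of E2f1, with a mean of 6.55, the 3 groups overlapped. Ccne1, the cyclin E that starts S phase, measured 7.82, 8.03 and 7.88 with Shh, 7.72, 7.72 and 7.82 with Ihh, and 7.74, 7.81 and 7.85 with Vehicle. In the probe set used, Shh 2 and not Shh 1 was the highest array. Ccne2, the other cyclin E, averaged 7.60 ± 0.03 with Shh, 7.48 ± 0.28 with Ihh and 7.33 ± 0.14 with Vehicle (SD, n = 3 each), and its difference for both ligands was 0.20 (adjusted p = 0.457).

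All 8 measured G2/M regulators had differences above 0 for both ligands, with a median of 0.10, and none passed the test. Cdk1, the kinase of mitotic entry, measured 10.00, 9.73 and 9.76 with Shh, 9.39, 9.81 and 9.83 with Ihh, and 9.49, 9.62 and 9.68 with Vehicle. The Shh arrays lay above Vehicle, and the Ihh arrays held both the lowest value of all 9 and 2 values above every Vehicle array. Its difference was 0.15 for both ligands (SE 0.10, adjusted p = 0.586). Ccna2, cyclin A of S and G2 phase, measured 9.94, 9.63 and 9.67 with Shh, 9.43, 9.53 and 9.71 with Ihh, and 9.35, 9.64 and 9.66 with Vehicle. Apart from Shh 1 on top, the Shh and Vehicle arrays overlapped. Ccnb2, a mitotic B cyclin, measured 9.28, 8.85 and 8.81 with Shh, 8.68, 8.82 and 8.99 with Ihh, and 8.61, 8.67 and 8.81 with Vehicle. Its difference for Shh, 0.28 (adjusted p = 0.265), was the largest among the G2/M and mitotic genes, and Shh 1 stood well above the other Shh arrays.

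Aurka, a kinase of spindle poles, had the widest spread of the 44 within groups, a pooled SD of 0.26. It measured 8.56, 8.24 and 8.22 with Shh, 7.69, 8.19 and 8.44 with Ihh, and 7.96, 8.16 and 8.22 with Vehicle, so that all 3 groups overlapped. Foxm1, the forkhead factor that activates G2/M genes, averaged 7.31 ± 0.23 with Shh, 7.24 ± 0.11 with Ihh and 7.27 ± 0.26 with Vehicle (SD, n = 3 each). Its difference for both ligands was 0.00 (SE 0.12), with a 95% interval of -0.27 to 0.28.

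The 7 genes of the kinetochore, the spindle checkpoint and the APC/C were also all above 0 for both ligands, with a median of 0.11. Ttk, the checkpoint kinase Mps1, had the highest difference of them, 0.14 (SE 0.08, adjusted p = 0.504). Cdc20, the activator of the APC/C, measured 10.12, 10.12 and 10.13 with Shh, 9.77, 10.00 and 10.17 with Ihh, and 9.86, 9.86 and 10.03 with Vehicle. Its Shh arrays were nearly equal, whereas its Ihh arrays spanned both sides of Vehicle. Ube2c, the E2 enzyme of the APC/C and one of the CCAAT-rich promoters above, measured 9.92, 9.54 and 9.53 with Shh, 9.21, 9.58 and 9.57 with Ihh, and 9.26, 9.46 and 9.63 with Vehicle. Bub1b, the checkpoint protein BubR1, averaged 8.004 ± 0.076 with Shh, 7.87 ± 0.17 with Ihh and 7.85 ± 0.03 with Vehicle (SD, n = 3 each).

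Cenpf, a kinetochore protein, had a second, dim probe set that was the exception when every probe set was tested singly. It measured 5.27, 5.22 and 5.30 with Shh, 4.79, 4.84 and 4.96 with Ihh, and 4.69, 4.94 and 4.77 with Vehicle. All Shh arrays lay above all the others, and the difference of 0.46 for Shh against Vehicle had an adjusted p of 0.0256 over all probe sets in limma. The brighter probe set of Cenpf measured 8.20, 8.24 and 7.94 with Shh, 7.96, 8.08 and 8.24 with Ihh, and 8.08, 8.04 and 8.10 with Vehicle, with a difference of 0.05 for Shh (adjusted p = 0.812). The probe sets of Cenpf thus disagreed, and no other probe set of the 102 passed the test in any of the 4 comparisons.

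Among 7 genes of the spindle and of cytokinesis, 6 had differences above 0 for both ligands and Tpx2 had -0.02. Nusap1 is a protein that bundles spindle microtubules. By the probe set used, Nusap1 was the only gene of the 44 whose Ihh arrays all lay above Vehicle, where 5.67% of all genes did so. It measured 8.55, 8.53 and 8.24 with Shh, 8.40, 8.58 and 8.58 with Ihh, and 8.21, 8.28 and 8.32 with Vehicle. Shh 3 fell among the Vehicle arrays. The difference was 0.25 for Ihh (SE 0.09, adjusted p = 0.398) and 0.21 for both ligands (adjusted p = 0.264). Kif11, the motor that pushes the spindle poles apart, averaged 7.45 ± 0.11 with Shh, 7.42 ± 0.21 with Ihh and 7.26 ± 0.06 with Vehicle (SD, n = 3 each), and Kif23, a motor of the cytokinetic midzone, averaged 8.69 ± 0.21 with Shh, 8.49 ± 0.19 with Ihh and 8.45 ± 0.08 with Vehicle.

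Mki67 and Top2a, usual markers of cycling cells, both had Shh 1 as the highest Shh array and Ihh 1 as the lowest Ihh array. Mki67, which coats mitotic chromosomes and encodes the antigen Ki-67, measured 10.63, 10.43 and 10.41 with Shh, 10.18, 10.41 and 10.55 with Ihh, and 10.28, 10.20 and 10.44 with Vehicle. Shh 1 was its highest array and Ihh 1 its lowest, and the difference for both ligands was 0.13 (SE 0.09, adjusted p = 0.618). Top2a, the topoisomerase that untangles sister DNA, measured 10.15, 10.02 and 9.79 with Shh, 9.79, 9.97 and 10.02 with Ihh, and 9.87, 9.90 and 9.93 with Vehicle. In the probe set used, its Vehicle arrays lay between the extremes of both ligand groups, and the difference was 0.06 (SE 0.08, adjusted p = 0.831). Another probe set of Top2a, with a mean of 7.95, had a larger difference for both ligands, 0.31. Its unadjusted p was 0.0309 and its adjusted p 0.329 (limma, probe sets tested singly). There all Shh arrays lay above the Vehicle arrays, and Ihh 1 lay among the Vehicle arrays. The remaining probe set, with a mean of 4.29, had 0.04. The size for Top2a thus depended on the probe set.

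**Figure D3:**
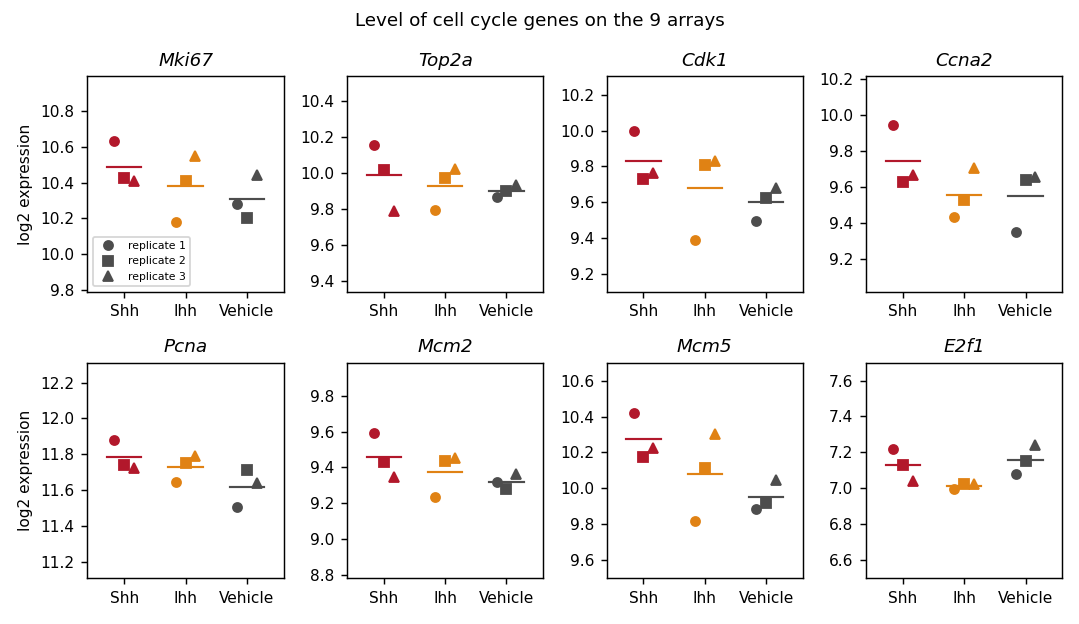
Log2 expression of 8 cell cycle genes on the 9 arrays, by the probe set used for each gene. Symbols give the replicate number and horizontal lines the group means. Each panel spans the same 1.2 log2 units around the gene's mean. Shh 1 is the highest Shh array and Ihh 1 the lowest Ihh array in all 8 panels, and E2f1 is the panel whose 3 Ihh arrays lie below both other groups.

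Over all 44 genes, 11 had 3 Shh arrays above the 3 Vehicle arrays by the probe set used, where 9.56% of all genes did. They were Mcm4, Mcm5, Cdc6, Cdt1, Pcna, Chaf1b, Ccne2, Cdk1, Bub1b, Cdc20 and Kif11, of which 7 have S-phase roles. Other probe sets did not always show this. Shh and Vehicle arrays overlapped in other probe sets of Cdt1 (mean 8.36), Mcm5 (8.26) and Cdc20 (9.42). They stayed apart in the other probe set of Mcm4 (9.55), and Bub1b and Kif11 had other probe sets of both kinds. Some genes outside the 11, such as Rrm1 and Uhrf1, had other probe sets in which they stayed apart. By the probe set used, none of the 44 had all 6 ligand arrays above the 3 Vehicle arrays, where 2.67% of all genes did. Dim second probe sets of Bub1 (mean 4.89) and Ttk (mean 4.92) did, with differences of 0.31 and 0.33 for both ligands. Their unadjusted p was 0.00062 and 0.0079, and their adjusted p 0.0637 and 0.191 (limma, probe sets tested singly).

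The joint movement of the genes was described array by array. For each gene the deviation of each array from the gene's mean over the 9 arrays was taken and averaged over the 44 genes. The mean deviation was 0.24, 0.05 and -0.03 on the Shh arrays, -0.22, 0.02 and 0.13 on the Ihh arrays, and -0.13, -0.06 and 0.00 on the Vehicle arrays (log2). Its group means were 0.09 ± 0.14 with Shh, -0.02 ± 0.18 with Ihh and -0.06 ± 0.07 with Vehicle (SD, n = 3 arrays each). The Shh arrays spanned 0.27 and the Ihh arrays 0.35, more than the 0.15 spanned by the 3 group means, and the Vehicle arrays spanned 0.13, which is less. A mean of 3 arrays spreads less than single arrays do. Over all 18193 genes the mean deviation of an array lay between -0.02 and 0.02. As the genes are not replicates, no p is given for these means.

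S-phase and mitotic genes showed the same profile. On Shh 1 the mean deviation was 0.21 for the 20 S-phase genes and 0.27 for the 24 G2/M and mitotic genes. On Ihh 1 the means were -0.21 and -0.23, on Ihh 3 they were 0.12 and 0.14, and on Vehicle 1 they were -0.12 and -0.14. By role, the mean on Shh 1 lay between 0.22 and 0.29 in 7 of the 8 roles and was 0.09 for the G1/S regulators, and that on Ihh 1 lay between -0.26 and -0.16 in all 8.

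**Figure D4:**
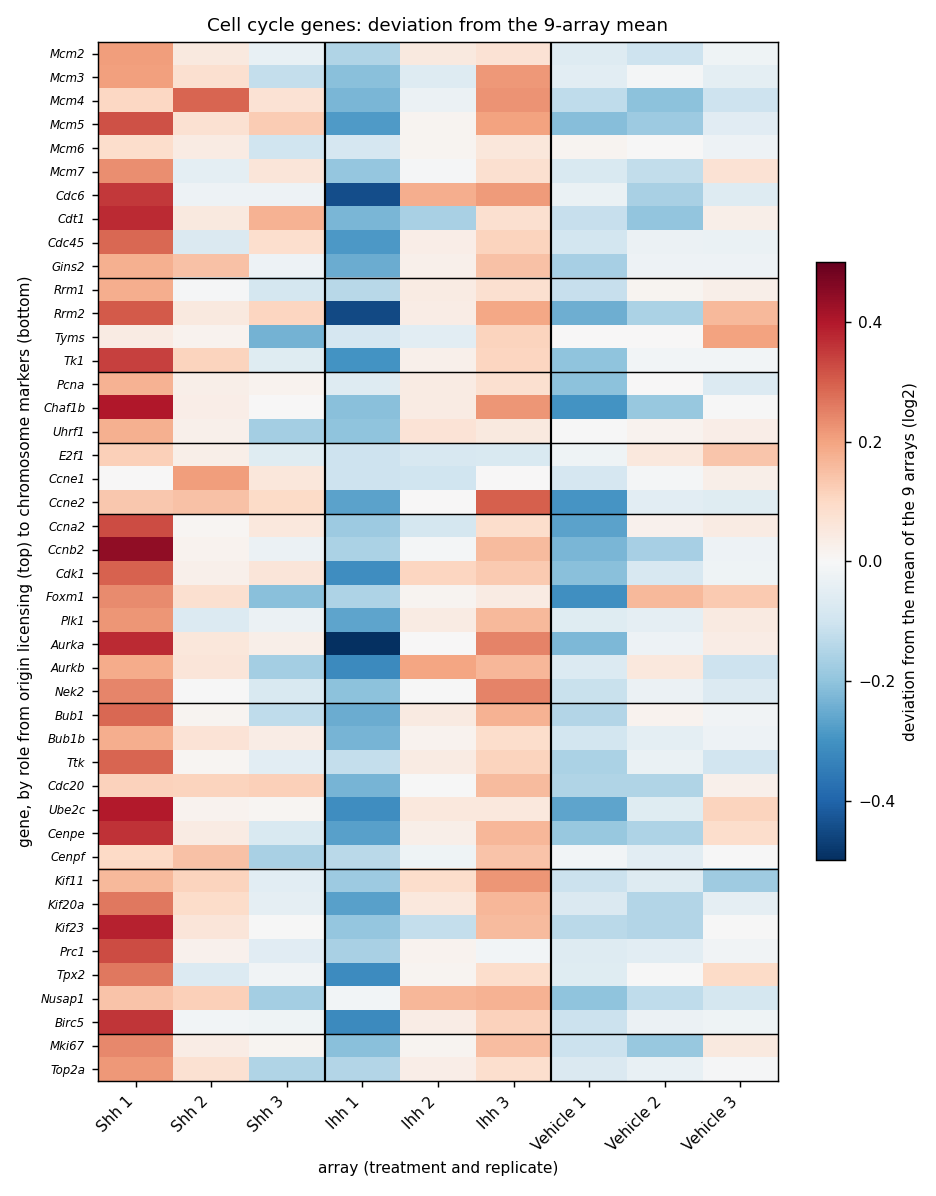
Deviation of each of the 44 cell cycle genes from its mean over the 9 arrays (log2, colour scale -0.5 to 0.5), with genes in rows grouped by role and arrays in columns in the order Shh, Ihh and Vehicle. The column Shh 1 is above the mean in every row, the column Ihh 1 is below it in all rows, and columns of the same treatment differ in colour.

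The order of the arrays was shared by most genes. Shh 1 was the highest Shh array for 39 of 44 genes, against 42.3% of all genes and 48.6% of the genes above the 40th percentile of level. Ihh 1 was the lowest Ihh array for 44 of 44, against 32.4% of all genes. Ihh 3 was the highest Ihh array for 40 of 44 (34.8% of all genes), and in the Vehicle group array 1 was the lowest for 32 (37.3%) and array 3 the highest for 32 (41.3%). Over the 9 arrays together, Shh 1 was the highest for 32 genes (19.6% of all genes) and Ihh 1 the lowest for 32 (10.5%). The exceptions to Shh 1 as the highest Shh array were Mcm4, Ccne1, Ccne2, Cdc20 and Cenpf, each by the probe set used. The other probe sets of Mcm4, Ccne1 and Cdc20 had Shh 1 as the highest Shh array. Those of Cenpf did not, and Ccne2 had no other.

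The share of a gene's sum of squares that lies between the 3 treatments was also taken. Its median over the 44 genes was 27.1%, against 33.3% over all genes and 36.3% over genes above the 40th percentile of level. It was over 50% in 5 genes, namely Cdt1 (57.0%), E2f1 (53.2%), Nusap1 (51.5%), Ccne1 (51.2%) and Mcm4 (50.1%), or 11.4% of the 44, against 26.8% of all genes. It was lowest in Mcm6 (1.34%). The spread within groups was larger than usual, with a median pooled SD of 0.16 against 0.10 over all genes. Ptch1, for comparison, had 93.0% of its sum of squares between treatments.

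Within groups the genes went up and down together. The deviations of each gene from its group means on the 9 arrays were correlated with the mean deviation of the other 43 genes. The median Pearson r was 0.90, and 35 of 44 genes were over 0.8, against 4.09% of all genes. The 9 points share arrays, group means and normalisation, so r is a description only. Bub1, a checkpoint kinase, was the most like the rest (0.97), followed by Tk1 and Aurka (0.97 each), and Ccne1 was the least like them (0.15), with Mcm4 (0.61) and E2f1 (0.69) next. This order is of the brightest probe set of each gene.

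**Figure D5:**
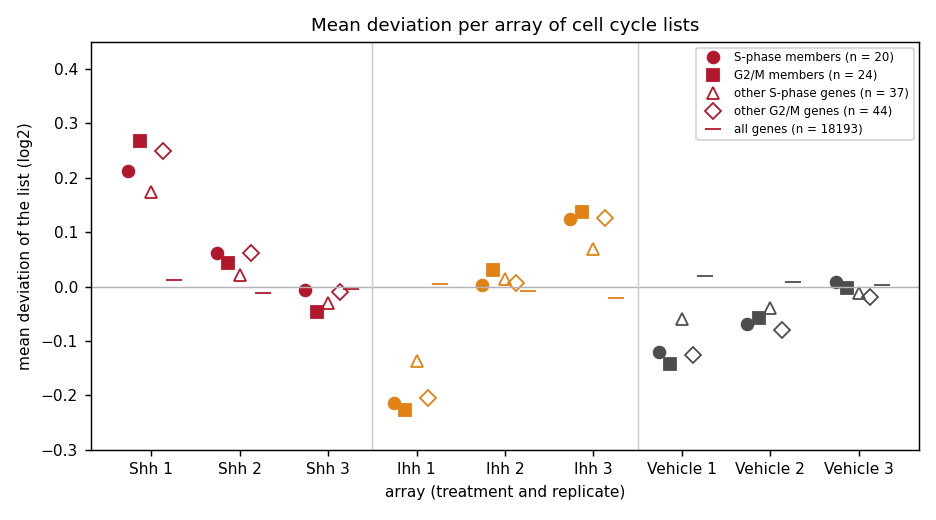
Mean deviation per array (log2) of 20 S-phase and 24 G2/M and mitotic genes of the set (filled symbols), of 37 other S-phase and 44 other G2/M genes (open symbols) and of all 18193 genes (dashes). The 4 cell cycle lists are highest on Shh 1 and lowest on Ihh 1, while the mean over all genes stays within 0.02 of 0.

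A second look at the same RNA came from the probe sets not used above. Of the 44 genes 11 had a single probe set and 33 had several, which left 58 further probe sets. Of these, 44 had the sign of their gene for both ligands against Vehicle, 41 had Shh 1 as the highest Shh array and 42 had Ihh 1 as the lowest Ihh array. Among the 36 of them at or above the 40th percentile of gene means, the counts were 30, 32 and 31. Sizes could differ between probe sets of a gene, as for Top2a above. For both ligands, Rrm1 had 0.04 in the probe set used and 0.36 in another with a mean of 9.84. The latter had an unadjusted p of 0.0212 and an adjusted p of 0.283 (limma, probe sets tested singly).

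Other genes of the same pathways were measured for comparison. Of 37 other S-phase genes, such as origin recognition, polymerase and clamp loader subunits, 0 rose and 0 fell for both ligands against Vehicle, 29 had differences above 0 and 3 an unadjusted p under 0.05 (limma), and the median was 0.06. Of 44 other G2/M genes, such as condensin and centromere proteins, 0 rose and 0 fell, 42 had differences above 0 and 4 an unadjusted p under 0.05. Their median was 0.12, and 13.7% of all genes had such a p. For Shh against Vehicle, 11 of the 44 and 4 of the 37 had an unadjusted p under 0.05 (limma), all higher with Shh. Of all genes 18.8% did in either direction, and 1466 of 18193 were higher. The medians for Shh were 0.19 and 0.08, and none passed the adjusted test. Rpa1, the subunit of replication protein A that coats single-stranded DNA, came nearest to the threshold: it measured 11.18, 10.99 and 11.06 with Shh, 10.71, 10.85 and 11.08 with Ihh, and 10.66, 10.63 and 10.75 with Vehicle. Its difference was 0.30 for both ligands (SE 0.08, adjusted p = 0.110) and 0.40 for Shh (adjusted p = 0.0663). The next were Kif18a, a kinesin that aligns chromosomes, with 0.25 (adjusted p = 0.188), Tipin, of the fork protection complex, with 0.21 (adjusted p = 0.237), and Ect2, the exchange factor of cytokinesis, with 0.23 (adjusted p = 0.252). These lists shared the array profile: Ihh 1 was the lowest Ihh array for 32 of 37 and 40 of 44 genes, and Shh 1 the highest Shh array for 29 and 39.

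The differences between the ligands depended most on the arrays Shh 1 and Ihh 1. With all arrays 42 of 44 genes had Shh above Ihh, with a median difference of 0.12. Without Shh 1 there were 27 of 44 (median 0.03), and without Ihh 1 there were 28 of 44 (median 0.01). Without Shh 2, Shh 3, Ihh 2 or Ihh 3 there were 39, 44, 42 and 43 of 44 (medians 0.12, 0.17, 0.14 and 0.20). With Shh 1 and Ihh 1 both left out there were 7 of 44 and the median was -0.07. These 2 were picked as the highest Shh and the lowest Ihh array. Leaving out either or both must lower the difference, so those values are descriptions only. Without Shh 1 alone the median for Shh against Vehicle was 0.08 (34 of 44 above 0), and without Ihh 1 alone that for Ihh against Vehicle was 0.14 (41 of 44 above 0). Without Ihh 3 that for Ihh against Vehicle was -0.04 (11 of 44 above 0). The median for both ligands against Vehicle was 0.11 (39 of 44 above 0) without Shh 1 and Ihh 1, and between 0.06 and 0.16 with any 1 array left out. The share of the sum of squares between treatments had a median of 51.8% without Shh 1 and Ihh 1 (41.5% over all genes), 12.2% without Shh 1 alone (36.1%) and 39.2% without Ihh 1 alone (35.9%). In these fits the lowest adjusted p of any of the 44 genes was 0.0975.

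Markers of other cells moved with the arrays too. The mean deviation of 6 endothelial markers was -0.27, -0.16 and -0.19 on the Shh arrays, 0.23, 0.05 and -0.24 on the Ihh arrays, and 0.29, 0.26 and 0.04 on the Vehicle arrays. That of 6 markers of enteric neurons and glia was -0.21, -0.14 and -0.09 with Shh, 0.20, 0.06 and -0.15 with Ihh, and 0.19, 0.14 and -0.01 with Vehicle. Ihh 1, on which the cell cycle genes were lowest, was the highest Ihh array for 6 of 6 markers in both lists, against 41.7% of all genes. It was also the highest for 5 of 8 mesenchyme, 6 of 8 epithelium, 3 of 5 red blood cell and 0 of 9 macrophage markers. The lowest adjusted p of the endothelial, neuronal and glial markers for both ligands against Vehicle was 0.0870, for Tie1, with a difference of -0.59 (limma). Markers of epithelium, the layer that was removed, varied most, with mean levels of 7.26, 6.03 and 8.05 with Shh, 7.77, 7.95 and 6.87 with Ihh, and 8.18, 7.12 and 5.99 with Vehicle over 8 genes. The 5 mesothelial markers, of which Krt19 is also an epithelial one, had mean levels of 5.83, 5.18 and 6.19 with Shh, 6.11, 6.02 and 5.47 with Ihh, and 6.35, 5.69 and 5.20 with Vehicle, and Ihh 1 was the highest Ihh array for 4 of the 5. Red blood cell markers averaged 4.44 to 4.61 on the 9 arrays. For Gapdh, the 3′ minus the 5′ control value, which tracks RNA integrity, was -0.04 on Ihh 1, between -0.19 and -0.15 on the other 5 ligand arrays, and 0.03, -0.08 and -0.05 on the Vehicle arrays. For beta-actin, Ihh 1 stood less apart, with 0.18 against 0.12 to 0.17 on the other 5 ligand arrays. The beta-actin values of the Vehicle arrays were 0.28, 0.15 and 0.19. A marker of embryo sex differed between the pools as well: Xist, expressed in female cells, measured 11.31, 11.24 and 6.43 with Shh, 10.04, 10.28 and 10.66 with Ihh, and 10.83, 6.34 and 6.48 with Vehicle. The part of these markers, of RNA quality and of sex in the array profile of the cell cycle genes was not tested.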

How the data were processed

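Affymetrix mouse genome arrays were hybridised with biotin-labelled cRNA from 6 ug of total RNA of 9 pools, 3 each for Shh, Ihh and Vehicle. The deposited values are log2 expression per probe set; GCOS and RMA are named, without versions, per the submitters' processing notes. The labels name no batch or scan date. Control probe sets were left out, and probe sets with 1 gene symbol in the platform annotation were kept; a gene took the probe set with the highest mean. limma 3.58.1 in R 4.3.3 fitted the 3 group means over 18193 genes (6 residual and 3.88 prior degrees of freedom) with two-sided moderated tests and Benjamini-Hochberg adjustment over all genes at 0.05. The fit was tested on simulated data. The number of arrays limits the precision.

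The genes, their roles, the comparison lists and the tests were chosen with earlier results of these data known. Named genes were 8 fixed genes (Ccnb1 among them, unmeasured), the 3 with the smallest p of each role, the 5 with the largest and the 5 with the smallest spread within groups, and 4 of the other pathway lists; Cenpf, Bub1 and Tpx2 were added for what their values showed. Whether replicate numbers pair arrays was checked by the correlation of same-numbered arrays' deviations from their group means. It was 0.353, 0.226 and 0.543 for Ihh with Vehicle, over 0.1 in every pair. These were taken as paired only in the alternatives with a block, and the main tests used no pairing. The labels give no reason for a pairing, and Ihh 2 with Vehicle 1 gave 0.218. The correlation was -0.163, -0.0824 and -0.297 for Shh with Ihh, and -0.108, 0.141 and -0.158 for Shh with Vehicle, so these were not taken as paired. Alternatives were other normalisations, filters, probe set choices, variance models, array weights, a block on replicate number and arrays left out. Promoters are RefSeq's, build GRCm38.p6.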

Additional observations from a re-analysis of the deposited data

How the results depend on the processing

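The count of cell cycle genes called was 0 in 96 of 98 recomputations over 22 alternatives, and 1 for Shh and 1 for any difference when every probe set was tested singly (Cenpf). For both ligands against Vehicle, the lowest adjusted p of a named gene under any of them was 0.0999. The counts over all genes, 274 for both ligands, 314 for Shh, 118 for Ihh, 2 for Shh against Ihh and 153 for any difference, moved more. For both ligands against Vehicle it was 1126 with array weights and 99 to 416 with 1 array left out. For Shh it was 1017 with array weights, 80 to 675 with 1 array left out and 102 without Shh 1 and Ihh 1. For Ihh these were 498, 53 to 229 and 54; for Shh against Ihh, 1 to 2 with 1 array left out and 0 without both. For any difference they were 789, 45 to 334 and 61, and 240 with a trended, robust variance. With the replicate number as a block over all 9 arrays, of which the numbers pair only Ihh with Vehicle, the counts were 379 (both ligands), 522 (Shh), 122 (Ihh), 2 (Shh against Ihh) and 216 (any difference), and 0 cell cycle genes were called. With the Ihh and Vehicle arrays alone, Ihh against Vehicle called 280 genes with the block, an alternative chosen after seeing the data, and 87 without it, and 0 cell cycle genes in both. Not every array correlated best with its own number. With 1 array left out, the median over the genes was 0.057 to 0.1575 for both ligands, 0.07981 to 0.2199 for Shh, -0.04234 to 0.1371 for Ihh and 0.01156 to 0.1985 for Shh against Ihh, and -0.07194 for the last without Shh 1 and Ihh 1. The median share between treatments was 12.19% to 40.08%, and 51.84% without both. Of 549 recomputed differences of named genes, 19 turned sign, in 4 genes with differences near 0: Mcm6 (-0.01106 with arrays centred, -0.01188 to 0.03568 with 1 array left out), Uhrf1 (0.007969 with quantile normalisation, 0.06183 as the mean of its probe sets, -0.06682 to 0.02049), Ccne1 (-0.03628 as the mean, -0.1061 without less specific probe sets) and Foxm1 (-0.01468 centred, -0.04627 as the mean, -0.09872 with array weights, -0.01572 without both arrays, -0.1464 to 0.08784). The cause of these moves was not tested. The values hold no detection call, so no limit from signal over background is given.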
